A study of Mus musculus with 9 samples.

Results

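The class I olfactory receptor genes of mouse chromosome 7 were examined as a group in brain. They were selected on their platform names and position, as probe sets (the probes that together report 1 gene) assigned to chromosome 7 whose gene symbol is Olfr followed by a number from 543 to 692. This gave 112 probe sets for 112 genes out of 150 possible numbers, among 22206 probe sets on the array and 1091 probe sets for olfactory receptors of any class. A public gene table placed all 112 genes on chromosome 7. Although no signal value entered the choice of single members, the family was chosen by its signal: it was taken up because olfactory receptors were already known to be higher in ob/ob brain on these arrays, and the values of ob/ob vehicle against wild type brain, and of VE against ob/ob vehicle brain, are therefore given as descriptions of the family.

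RNA of male mice was measured on Clariom S mouse arrays, 1 array per sample, in 3 groups of 3 arrays. The first group carried the ob/ob genotype, a loss of leptin that makes mice obese, and received an extract of Vigna umbellata (VE, rice bean) by oral gavage at 100 mg/kg body weight for 42 days. The second was ob/ob (C57BL/6JHamSlc-ob/ob) given vehicle over the same time, and the third was wild type (C57BL/6JHamSlc-+/+) given vehicle. All mice were obtained at 6 weeks of age, acclimatised for 1 week and kept on standard chow. The labels do not say whether each array stood for a separate animal, so the p-values below measure the spread between these arrays. The sample labels name brain, while the series design text names white adipose tissue and a further dose, which was not analysed here. In the data, 5 of 5 measured adipose marker genes had a mean signal below the median of all probe sets, and all 6 neuron, 5 astrocyte and 4 measured oligodendrocyte marker genes were above it.

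Odorant receptors are G protein-coupled receptors, and a mature olfactory sensory neuron expresses a single one of them. Class I receptors, the branch that mammals share with fish, lie in mouse in a single cluster on chromosome 7 that surrounds the beta-globin genes and is controlled over long distance by an enhancer called the J element; many of them bind carboxylic acids. Several olfactory receptors are also transcribed outside the nose. Olfr544 binds azelaic acid and has been studied in liver and fat, and Olfr558 responds to short-chain fatty acids. A brain sample holds no nasal epithelium unless some is taken with it, and fewer cells of a type cannot be told apart from less RNA per cell in a tissue sample.

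The start regions of 4 receptors are shown because they belong to the pairs whose values are set side by side below. Olfr635 and Olfr638 had the 2 highest changes of the family, and Olfr679 and Olfr681 have almost the same start region but different values. The pairs were picked after their values were seen. Each window runs over 300 bases, 250 before and 50 after the annotated start, in RefSeq's GRCm38.p6 sequence, plus strand: chr7:103978926-103979225 for Olfr635, chr7:104003009-104003308 for Olfr638, chr7:105085468-105085767 for Olfr679 and chr7:105121209-105121508 for Olfr681. Capitals mark stretches of at least 12 bases that also occur in the other window of the pair. In all 4 windows the 50 bases after the annotated start begin with ATG, the start codon. The annotated start is there the coding start, so these windows need not hold the promoter.
Olfr635: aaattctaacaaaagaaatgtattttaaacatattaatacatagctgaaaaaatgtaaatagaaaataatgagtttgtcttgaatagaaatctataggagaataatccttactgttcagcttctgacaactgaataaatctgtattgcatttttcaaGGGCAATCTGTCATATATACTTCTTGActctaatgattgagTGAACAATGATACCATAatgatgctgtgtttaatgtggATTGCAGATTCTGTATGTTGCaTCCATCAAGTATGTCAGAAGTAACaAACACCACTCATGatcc
Olfr638: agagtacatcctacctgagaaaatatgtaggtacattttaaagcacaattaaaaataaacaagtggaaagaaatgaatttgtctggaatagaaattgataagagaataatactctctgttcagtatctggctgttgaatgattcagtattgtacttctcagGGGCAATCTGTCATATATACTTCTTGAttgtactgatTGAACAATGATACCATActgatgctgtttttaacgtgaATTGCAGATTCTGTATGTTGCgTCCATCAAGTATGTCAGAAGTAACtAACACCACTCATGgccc
Olfr679: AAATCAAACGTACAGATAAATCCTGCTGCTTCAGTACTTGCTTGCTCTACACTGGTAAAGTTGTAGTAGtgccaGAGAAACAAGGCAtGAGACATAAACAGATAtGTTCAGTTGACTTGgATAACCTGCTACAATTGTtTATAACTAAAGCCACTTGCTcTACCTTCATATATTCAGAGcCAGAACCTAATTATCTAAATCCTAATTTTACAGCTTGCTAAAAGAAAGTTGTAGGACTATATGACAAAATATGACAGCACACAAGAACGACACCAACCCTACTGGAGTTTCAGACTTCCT
Olfr681: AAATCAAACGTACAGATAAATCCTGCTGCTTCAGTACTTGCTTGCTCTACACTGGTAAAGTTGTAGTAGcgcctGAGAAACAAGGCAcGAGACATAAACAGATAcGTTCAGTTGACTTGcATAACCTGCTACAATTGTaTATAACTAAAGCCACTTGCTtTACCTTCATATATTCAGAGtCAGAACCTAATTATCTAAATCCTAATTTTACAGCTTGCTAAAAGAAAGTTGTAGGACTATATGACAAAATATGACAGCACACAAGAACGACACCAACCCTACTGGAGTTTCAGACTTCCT

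Aligned end to end, the windows of Olfr635 and Olfr638 were identical at 237 of 305 aligned positions (77.7%), and those of Olfr679 and Olfr681 at 292 of 300 (97.3%). Of 4560 pairs among the 96 family members with a window in the table, 91 shared a run of 12 bases, and the window of Olfr596 was the same as that of Olfr603 over all 300 bases. Signals of such close copies are uncertain as measures of 1 gene alone, since probes may be shared, which was not tested. The window of Olfr679, like that of Olfr681, holds the letters TAATTA, which homeodomain proteins such as Lhx2 bind. TAATTA, read on both strands, occurred in 14 of the 96 windows (14.6%), against 18.8% of 833 windows of other olfactory receptors and 5.29% of all 32851 windows in the table. The letters CCCNNGGG, the core bound by the EBF factors that olfactory neurons use, occurred in 3 of 96 (3.13%), against 2.88% and 13.7% in the same 2 comparison sets. The median GC content of the family's windows was 37.3%, against 52.7% over all windows, which the shares do not take into account. Nor do the shares take into account whether an annotated start is a coding start, as in the windows printed above.

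The receptors gave low signals in brain. All values are log2 signals as the authors normalised them, and a probe set's brightness also depends on its probes, so levels are used here to rank probe sets and not to compare transcripts. Mean signals over the 9 arrays ran between 4.05 and 8.66 with a median of 6.12, against 7.13 over all probe sets, and 100 of the 112 receptors were below that overall median. The highest means were those of Olfr666, Olfr635 and Olfr638, and the lowest those of Olfr569, Olfr668 and Olfr652. Olfr569 read 3.73, 3.70 and 3.90 on the VE arrays, 3.97, 4.50 and 4.80 on the ob/ob vehicle arrays and 3.80, 4.02 and 4.06 on the wild type arrays. Olfr666 read 8.67, 8.44 and 8.01 on the VE arrays, 9.17, 8.98 and 9.50 on the ob/ob vehicle arrays and 8.31, 8.44 and 8.39 on the wild type arrays. For Olfr666 the ob/ob vehicle arrays stood above all others; for Olfr569 the ranges of ob/ob vehicle and wild type overlapped.

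As a family, the receptors were highest in ob/ob vehicle brain, and VE and wild type brain lay close together. The family's median signal was 5.96, 5.81 and 5.97 on the VE arrays, 6.34, 6.37 and 6.39 on the ob/ob vehicle arrays, and 5.87, 6.02 and 6.06 on the wild type arrays. All 3 ob/ob vehicle arrays were above all 6 others, and the VE and wild type arrays overlapped. The mean of these medians was 5.91 ± 0.088 for VE, 6.36 ± 0.028 for ob/ob vehicle and 5.98 ± 0.098 for wild type (SD, n = 3 each). VE array 2 stood apart from the rest of the series: over all probe sets it correlated with the other arrays at 0.962 to 0.970, the standard deviation of its signals was 2.38 against 2.56 to 2.84 on the others, and its family median was the lowest of all 9. Counts of calls, and changes of named receptors that leaving it out moved by over 1.5 times, are given with and without it below. The compared groups also differed in this standard deviation. It was 2.56 to 2.73 on the ob/ob vehicle arrays, 2.78 to 2.84 on the wild type arrays and 2.38 to 2.80 on the VE arrays. Whether this has a part in the receptor values was not tested.

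**Figure D1:**
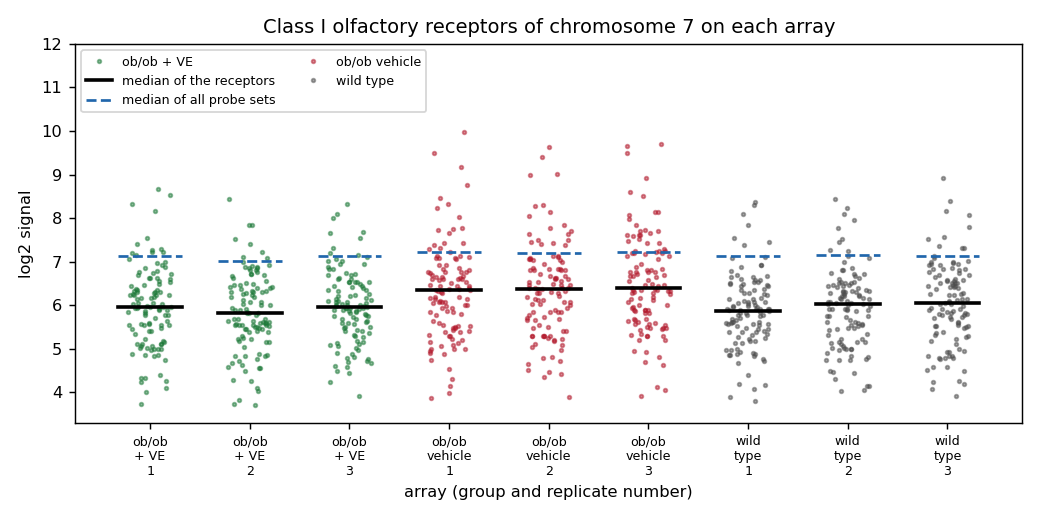
Log2 signal (vertical axis) of each of the 112 class I receptors on each of the 9 arrays, grouped as ob/ob given VE, ob/ob given vehicle and wild type; the black bar is the receptors' median and the dashed blue line the median of all probe sets on that array. The receptor median lies at 6.34 to 6.39 on the 3 ob/ob vehicle arrays and at 5.81 to 6.06 on the other 6, and below the median of all probe sets on every array.

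The first comparison, ob/ob vehicle against wild type, shows how the receptors stand in obese mice without the extract, both groups having received vehicle. Receptor signals were mostly higher in ob/ob vehicle brain: the fitted log2 change was above 0 for 104 receptors and below 0 for 8, with a median of 0.39 and a range of -0.19 to 1.40, while over all probe sets 51.2% were above 0. Dim probe sets as a whole were also somewhat higher in ob/ob, so each change was also set against the median change of all probe sets in the same 1 of 20 bins of mean signal. The median above that like-level value was 0.22, and 88 of the 112 receptors exceeded it. After quantile normalisation of the arrays the median change was 0.24 with 90 receptors above 0, and the median above like level stayed at 0.22.

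Limma's moderated test, with Benjamini-Hochberg adjustment over all probe sets and calls at an adjusted p under 0.05, called 5 receptors higher and none lower in ob/ob vehicle brain (36 higher and 0 lower at an unadjusted p under 0.05), against 0.536% of all probe sets called higher and 0.73% called lower. Since the family was selected on this contrast, nothing is read from the count. The ob/ob vehicle arrays did not overlap the wild type arrays, and were higher, for 45 receptors (40.2%), beside 15.8% of all probe sets. Among the other olfactory receptors this share was 40% on chromosome 7 and 31.1% elsewhere. The rule the authors state, an unadjusted p under 0.05 and a fold change over 1.1, counted 36 receptors higher, beside 9.88% of all probe sets, and limma after quantile normalisation called 8 higher, beside 1.72%. The number of limma calls rested on single arrays: it was 27 without VE array 2, 1 without VE array 3, and 0 without any 1 of the ob/ob vehicle or wild type arrays.

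Olfr638 had the highest change. Its signal was 8.16, 7.52 and 8.09 on the VE arrays, 9.50, 9.41 and 9.66 on the ob/ob vehicle arrays and 8.10, 8.09 and 8.17 on the wild type arrays. All ob/ob vehicle arrays exceeded all others by more than 1 log2 unit, and the remaining 6 arrays overlapped. The change over wild type was 1.40 (SE 0.21, limma adjusted p = 0.0207).

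Olfr635, its neighbour in the cluster, read 8.52, 6.07 and 7.65 on the VE arrays, 9.98, 9.64 and 9.70 on the ob/ob vehicle arrays and 8.37, 8.23 and 8.93 on the wild type arrays. The ob/ob vehicle arrays again stood above all others, and the VE arrays spread widely, with VE array 2 lowest. Its change over wild type was 1.26 (SE 0.45), and it missed the threshold (limma adjusted p = 0.152).

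Olfr585 read 5.45, 5.57 and 5.75 on the VE arrays, 6.50, 6.27 and 7.18 on the ob/ob vehicle arrays and 5.18, 5.48 and 5.62 on the wild type arrays. Olfr578 read 6.92, 6.81 and 7.14 on the VE arrays, 8.33, 8.04 and 8.60 on the ob/ob vehicle arrays and 7.09, 7.13 and 7.51 on the wild type arrays. For both receptors the 3 ob/ob vehicle arrays were the highest of the 9 and the VE and wild type ranges overlapped. The changes over wild type were 1.22 for Olfr585 (SE 0.25, limma adjusted p = 0.0401) and 1.08 for Olfr578 (SE 0.22, limma adjusted p = 0.0401).

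Olfr549 and Olfr684, near opposite ends of the cluster, were the other members that passed. Olfr549 read 8.33, 7.85 and 8.32 on the VE arrays, 8.76, 9.01 and 8.91 on the ob/ob vehicle arrays and 7.83, 7.95 and 8.06 on the wild type arrays. Olfr684 read 7.05, 7.07 and 6.82 on the VE arrays, 7.66, 7.76 and 7.84 on the ob/ob vehicle arrays and 6.78, 6.80 and 7.07 on the wild type arrays. The ob/ob vehicle arrays lay above the others for both, with changes over wild type of 0.95 (SE 0.20, limma adjusted p = 0.0463) for Olfr549 and 0.87 (SE 0.19, limma adjusted p = 0.0469) for Olfr684.

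Other receptors had changes of like size with more spread or an adjusted p just past the threshold. Olfr657 read 6.59, 6.88 and 7.20 on the VE arrays, 7.73, 7.70 and 8.51 on the ob/ob vehicle arrays and 6.92, 6.80 and 6.94 on the wild type arrays, a difference of 1.09 (SE 0.25, limma adjusted p = 0.0544) with no overlap between ob/ob vehicle and the rest. Olfr679 read 7.23, 6.39 and 5.74 on the VE arrays, 6.63, 7.83 and 7.97 on the ob/ob vehicle arrays and 6.16, 6.05 and 6.85 on the wild type arrays. Its groups overlapped and its difference of 1.12 (SE 0.40) did not pass (limma adjusted p = 0.151). Olfr666 differed by 0.84 (limma adjusted p = 0.0762).

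Not every receptor was higher. The 4 lowest differences of ob/ob vehicle from wild type were -0.19 for Olfr672, -0.09 for Olfr681, -0.09 for Olfr686 and -0.07 for Olfr624, all well within the spread of the arrays, with limma adjusted p between 0.773 and 0.937. Olfr681, whose start region nearly matches that of Olfr679, read 6.02, 5.69 and 5.50 on the VE arrays, 5.52, 6.03 and 6.34 on the ob/ob vehicle arrays and 5.92, 6.15 and 6.09 on the wild type arrays, with all 3 groups overlapping.

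**Figure D2:**
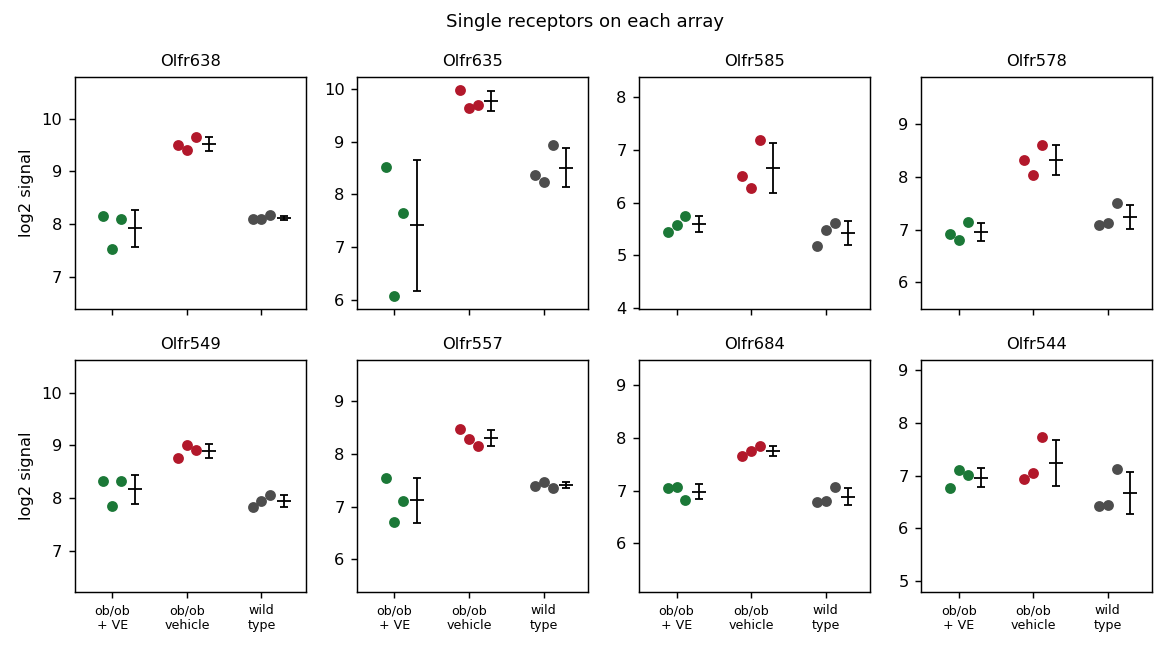
Log2 signal (vertical axis) on each array for the 7 receptors that passed limma's adjusted p under 0.05 in either comparison with ob/ob vehicle, and for Olfr544; dots are arrays, grouped as ob/ob given VE, ob/ob given vehicle and wild type, and the bar beside them is the mean with SD (n = 3). Each vertical axis spans the same number of log2 units; in the 7 receptors every ob/ob vehicle dot lies above all others, while the dots of Olfr544 overlap.

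The second comparison, VE against ob/ob vehicle, shows what accompanied 42 days of the extract in the obese mice. It uses the same ob/ob vehicle arrays as the first, so the 2 comparisons are not independent of each other. Receptor signals were mostly lower on the VE arrays: the log2 change was below 0 for 96 receptors and above 0 for 16, with a median of -0.47 and a range of -2.36 to 0.64, while over all probe sets 58% were below 0. Against probe sets of like level the median was -0.35, with 93 receptors below it, and after quantile normalisation the median change was -0.37. With quantile normalisation of the 8 arrays other than VE array 2, added after the data were seen, the median was -0.28, and with the deposited values without that array it was -0.39.

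Limma called 4 receptors lower and none higher on the VE arrays (51 lower and 0 higher at an unadjusted p under 0.05), against 0.473% of all probe sets called lower and 0.0135% called higher; nothing is read from the count, since this contrast also entered the choice of the family. The VE arrays did not overlap the ob/ob vehicle arrays, and were lower, for 47 receptors (42%), beside 11.9% of all probe sets. Among the other olfactory receptors this share was 35.8% on chromosome 7 and 21.9% elsewhere. The authors' rule counted 51 receptors lower, beside 10.1% of all probe sets, and limma after quantile normalisation called 5 lower, beside 1.19%. Without VE array 2 the fit called 12 receptors, without wild type array 1 it called 1, and without wild type array 2 or 3, or any of the ob/ob vehicle arrays, it called 0.

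The 4 called receptors were Olfr635, Olfr638, Olfr578 and Olfr557. With the array values given above, VE minus ob/ob vehicle was -2.36 for Olfr635 (SE 0.45, limma adjusted p = 0.0403), -1.60 for Olfr638 (SE 0.21, limma adjusted p = 0.0334) and -1.37 for Olfr578 (SE 0.22, limma adjusted p = 0.0334). For all 3, each VE array was below each ob/ob vehicle array. Olfr557 read 7.54, 6.70 and 7.11 on the VE arrays, 8.47, 8.28 and 8.15 on the ob/ob vehicle arrays and 7.39, 7.46 and 7.35 on the wild type arrays, so that VE lay below ob/ob vehicle throughout and around wild type. Its change on VE was -1.18 (SE 0.23, limma adjusted p = 0.0403). Next by adjusted p were Olfr649, named after its values were seen, with -1.12 (limma adjusted p = 0.0504), and Olfr568 with -1.13 (limma adjusted p = 0.0649). Without VE array 2 the change of Olfr635 was -1.69, that of Olfr638 -1.40, that of Olfr578 -1.29, that of Olfr557 -0.98 and that of Olfr568 -0.90, with limma adjusted p between 0.00684 and 0.0483.

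Of the 16 receptors with higher values on the VE arrays, none was called; Olfr619 and Olfr672 had the highest differences. Olfr619 read 4.01, 5.69 and 5.17 on the VE arrays, 3.86, 4.41 and 4.69 on the ob/ob vehicle arrays and 4.07, 4.30 and 3.91 on the wild type arrays, and Olfr672 read 7.27, 6.12 and 6.34 on the VE arrays, 6.14, 6.20 and 5.48 on the ob/ob vehicle arrays and 5.95, 6.62 and 5.82 on the wild type arrays. The VE arrays overlapped the others in both. The differences of VE from ob/ob vehicle were 0.64 for each (limma adjusted p = 0.484 for Olfr619 and 0.423 for Olfr672), and those of Olfr668, Olfr686 and Olfr570 were 0.52, 0.30 and 0.23, none past the threshold. Without VE array 2, Olfr619 differed by 0.27, Olfr686 by 0.13 and Olfr570 by 0.11.

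The third comparison, VE against wild type, sets the treated obese mice beside lean ones. In the deposited values the receptors were spread about evenly around 0: 55 were above and 57 below. Over all probe sets 41.0% were above 0 and 58.8% below. After quantile normalisation 45 receptors were above 0 and 67 below. Against like level the deposited changes of 44 receptors were above and 68 below, with a median of -0.05. The median deposited change of the receptors was -0.0067 and the range was -1.17 to 0.86. Without VE array 2 the median change was 0.04. Limma called none of the 112 in either direction, against 0% of all probe sets called higher and 0.0991% called lower; at an unadjusted p under 0.05, limma found 3 higher and 4 lower. The VE and wild type arrays did not overlap for 4 receptors that were higher on VE, beside 5.34% of all probe sets, and for 3 that were lower, beside 11.5%. A p that misses the threshold does not show that the 2 groups were alike.

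Olfr572 had the smallest adjusted p in that comparison. It read 5.56, 5.81 and 5.67 on the VE arrays, 6.75, 6.36 and 6.43 on the ob/ob vehicle arrays and 6.27, 6.43 and 6.38 on the wild type arrays. Here the VE arrays were below both other groups, and the difference from wild type was -0.68 (SE 0.19, limma adjusted p = 0.196). Olfr624 and Olfr635 had the lowest differences, -1.17 (limma adjusted p = 0.257) and -1.10 (limma adjusted p = 0.361), each with VE array 2 as the lowest of the 9 arrays; without that array they were -0.69 (limma adjusted p = 0.424) and -0.42 (limma adjusted p = 0.647). Olfr619, Olfr668 and Olfr653 had the highest, 0.86, 0.60 and 0.53, with limma adjusted p between 0.311 and 0.363, and without VE array 2 that of Olfr619 was 0.50.

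The size of the differences followed signal strength. To keep the ranking free of the arrays compared, receptors were ranked by their mean on the group that was in neither side of the comparison. The like-level bins still used the mean over all 9 arrays, the compared ones included. Ranked by the VE arrays, the 37 dimmest receptors had a median change of 0.29 in ob/ob vehicle over wild type, the middle 37 of 0.35 and the brightest 38 of 0.57; set against probe sets of like level these medians were 0.11, 0.16 and 0.48. Ranked by the wild type arrays, the median changes of VE from ob/ob vehicle were -0.17, -0.36 and -0.70, and -0.09, -0.24 and -0.58 against like level. Across the 112 receptors, Spearman's rho of level with change was 0.45 in the first comparison and -0.51 in the second; the points come from the same arrays and are given as a description. The other 859 olfactory receptors, those on chromosomes other than 7, showed the same order by level, with 0.23, 0.34 and 0.45 in ob/ob vehicle over wild type and -0.13, -0.23 and -0.41 in VE minus ob/ob vehicle. The 120 other olfactory receptors of chromosome 7 gave 0.15, 0.49 and 0.48 in ob/ob vehicle over wild type, where the middle and brightest groups did not keep that order, and -0.12, -0.39 and -0.68 in VE minus ob/ob vehicle.

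**Figure D3:**
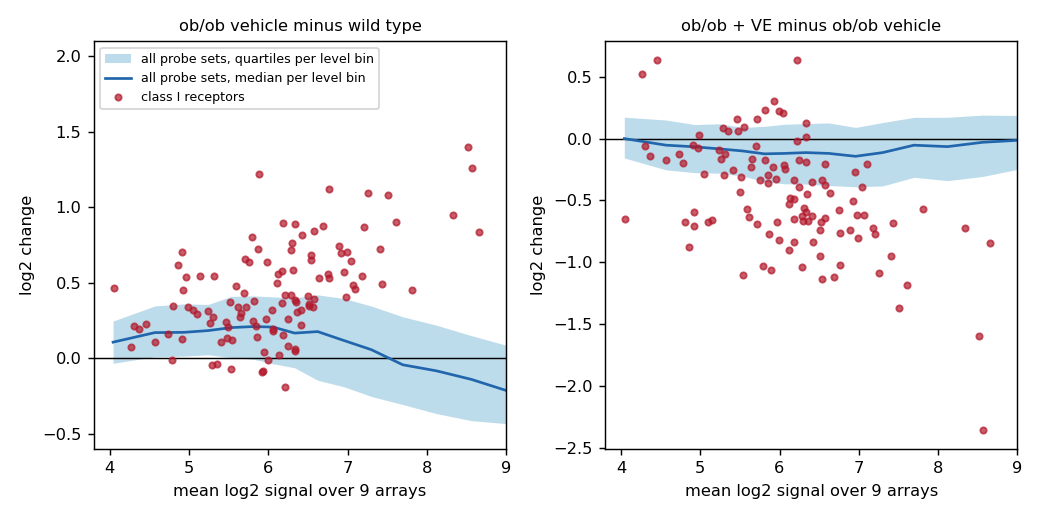
Log2 change (vertical axis) against mean log2 signal over the 9 arrays (horizontal axis) for the 112 class I receptors (red), with the median (line) and the range between the lower and upper quartile (band) of all probe sets in 20 bins of level in blue. For ob/ob vehicle minus wild type (left) most of the brighter receptors lie above the blue band, and for VE minus ob/ob vehicle (right) most lie below it; the extreme receptors are at 1.40 and -2.36.

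Position along the cluster was described next. The 65 receptors before the beta-globin genes had a median change of 0.36 in ob/ob vehicle over wild type, the 11 between globin and Ubqln genes 0.53, the 2 between Ubqln and Trim genes 0.80, the 11 between Trim and Usp17l genes 0.38 and the 23 after the Usp17l genes 0.39. The corresponding medians of VE minus ob/ob vehicle were -0.50, -0.56, -1.03, -0.39 and -0.23. In the same order the median signals were 5.99, 6.52, 7.05, 6.05 and 5.93, so the 2 stretches with the highest changes were also the brightest. Against like level the medians in ob/ob vehicle over wild type were 0.17, 0.35, 0.685, 0.17 and 0.22. Whether position matters apart from signal was not tested. Of the 96 receptors with a start window, those of either strand had like medians in ob/ob vehicle over wild type, 0.40 for 52 on the plus strand and 0.39 for 44 on the minus strand. The 7 called receptors came from 3 of the 5 stretches.

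Genes of other kinds stand between the receptors and give a view of the same stretch of chromosome. The 19 such genes measured, of the Trim, Usp17l, Ubqln, olfactomedin and globin families, had a median change of 0.07 in ob/ob vehicle over wild type, 13 above and 6 below 0, and a median of -0.14 in VE minus ob/ob vehicle; limma called none of them, and at an unadjusted p under 0.05 found 1 higher in ob/ob vehicle over wild type and 2 lower in VE minus ob/ob vehicle. Hbb-bh2, a globin gene of the locus, came closest, with 0.66 in ob/ob vehicle over wild type (limma adjusted p = 0.0959) and -0.62 in VE minus ob/ob vehicle (limma adjusted p = 0.178). The 8 olfactory receptors that lie between the members but carry numbers outside the range had a median of 0.39 in ob/ob vehicle over wild type, all 8 above 0. One of them, Olfr69, was called in both comparisons, higher by 1.04 in ob/ob vehicle (limma adjusted p = 0.0366) and at -1.01 on VE (limma adjusted p = 0.0456).

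**Figure D4:**
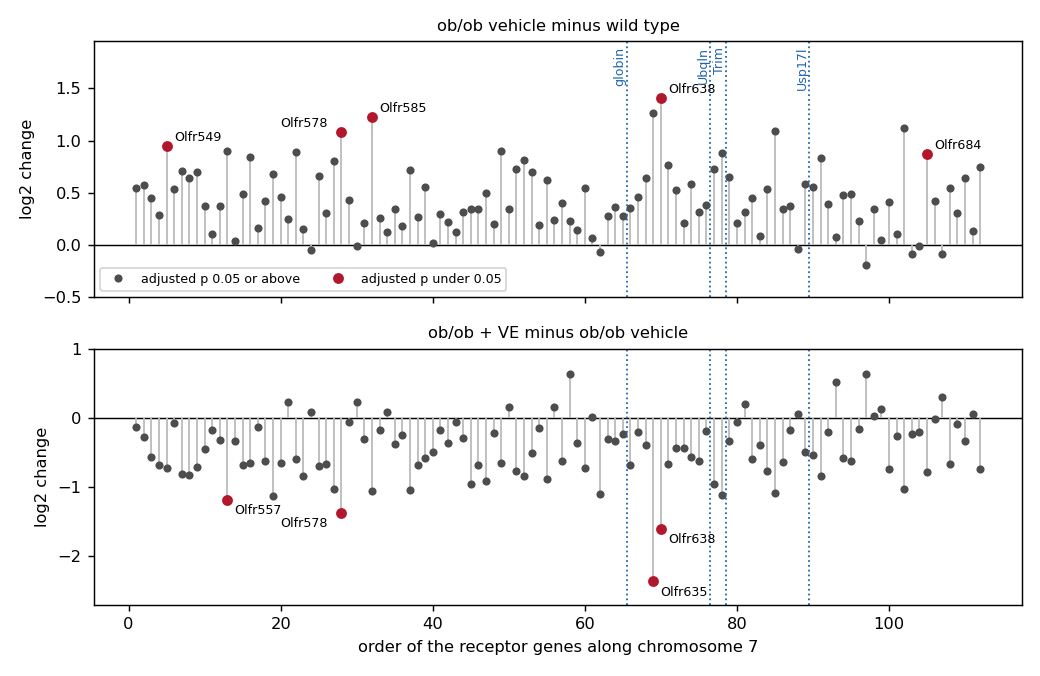
Log2 change (vertical axis) of each receptor in its order along chromosome 7 (horizontal axis), for ob/ob vehicle minus wild type above and VE minus ob/ob vehicle below; red dots have a limma adjusted p under 0.05 and dotted lines mark where the globin, Ubqln, Trim and Usp17l genes stand. Most stems point up in the upper panel (104 of 112) and down in the lower one (96 of 112) along the whole cluster.

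Receptors on both sides of the limits of the number range are given as values, with no test. Olfr543 and Olfr692, the outermost members, differed by 0.55 and 0.74 between ob/ob vehicle and wild type, and the nearest measured receptors outside, Olfr541 and Olfr693, by 0.49 and 0.84. In VE minus ob/ob vehicle the values were -0.12 and -0.74 inside and -0.57 and -1.09 outside.

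Olfr544 and Olfr558, whose ligands are given above, did not pass the test in any comparison. Olfr544 read 6.77, 7.11 and 7.01 on the VE arrays, 6.93, 7.05 and 7.73 on the ob/ob vehicle arrays and 6.43, 6.44 and 7.13 on the wild type arrays. Olfr558 read 6.19, 4.71 and 6.34 on the VE arrays, 6.27, 5.84 and 6.11 on the ob/ob vehicle arrays and 5.91, 6.46 and 5.73 on the wild type arrays, VE array 2 being low. The groups overlapped in both, and the differences of ob/ob vehicle from wild type were 0.57 (SE 0.26, limma adjusted p = 0.249) and 0.04 (SE 0.37, limma adjusted p = 0.96). Olfr545, the neighbour of Olfr544, differed by 0.45 (limma adjusted p = 0.258), Olfr690 by 0.64 (limma adjusted p = 0.176) and Olfr691 by 0.13 (limma adjusted p = 0.812).

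Receptors outside the family showed differences in the same directions. The 120 other olfactory receptors of chromosome 7 had a median change of 0.41 in ob/ob vehicle over wild type and -0.39 in VE minus ob/ob vehicle, the 859 on other chromosomes 0.34 and -0.26, and the 199 vomeronasal type 1 receptors, which detect pheromones in a separate organ, 0.32 and -0.32. Against probe sets of like level the class I receptors stood at 0.22 and -0.35, the other receptors of chromosome 7 at 0.28 and -0.27, those elsewhere at 0.18 and -0.16, and the vomeronasal receptors at 0.15 and -0.22. The other receptors of chromosome 7 include the 8 that lie between the members, Olfr69 among them. The family is thus set apart from them by gene number and not strictly by class. No test of these differences between families was made.

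Genes through which olfactory neurons choose and use their receptors were listed for comparison. Of 26 genes listed for olfactory signalling, not all of which carry the signal itself, 25 were measured, and limma called none in any comparison. At an unadjusted p under 0.05, limma found 1 higher and 3 lower in ob/ob vehicle over wild type. It found none in VE minus ob/ob vehicle and 1 lower in VE minus wild type. The median changes were -0.01 in ob/ob vehicle over wild type, -0.04 in VE minus ob/ob vehicle and 0.04 in VE over wild type. Of the 25 genes, 14 were below the median of all probe sets. Gnb1 had group means of 16.1 to 17.1, so the list is not particular to olfactory neurons. Adcy3, the adenylyl cyclase of olfactory cilia, had the smallest p, with -0.76 in ob/ob vehicle over wild type (limma adjusted p = 0.0857). Of 20 genes listed for receptor choice, which decides the receptor expressed, 18 were measured, and limma also called none. Most of the list are transcription factors and chromatin proteins. At an unadjusted p under 0.05, limma found 1 higher and 1 lower in ob/ob vehicle over wild type. It found none in VE minus ob/ob vehicle, and 2 higher and 3 lower in VE minus wild type. Summed log2 signals of the 8 markers of olfactory sensory neurons were 45.5 to 47.6 on VE and 46.2 to 49.0 on ob/ob vehicle arrays. On wild type arrays they were 46.0 to 47.2, and 7 of the 8 markers were below the median of all probe sets. In ob/ob vehicle over wild type 6 markers were above 0 and 2 below, with a median of 0.10. In VE minus ob/ob vehicle 2 were above 0 and 6 below, with a median of -0.155. Limma called none of the 8 in either comparison. Omp, the defining marker of mature olfactory neurons, read 5.18, 5.14 and 4.87 on the VE arrays, 5.09, 5.13 and 5.67 on the ob/ob vehicle arrays and 5.10, 5.13 and 4.77 on the wild type arrays, so the groups overlapped. The 7 measured of 8 olfactory bulb markers summed to 42.8 to 43.8 on VE arrays, 42.7 to 43.4 on ob/ob vehicle arrays and 42.1 to 43.9 on wild type arrays.

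Markers of other cell types also differed between the groups. All 6 neuron, 5 astrocyte, 4 oligodendrocyte and 5 microglia markers had lower values in ob/ob vehicle than in wild type brain, and limma called Gfap (-1.40, adjusted p = 0.0394) and Aqp4 (-0.91, adjusted p = 0.0467) of the astrocytes and Cldn11 (-1.34, adjusted p = 0.0497) of the oligodendrocytes. After quantile normalisation Gfap (limma adjusted p = 0.109) and Aqp4 (limma adjusted p = 0.121) no longer passed, Cldn11 did (limma adjusted p = 0.0315), Cx3cr1 and Csf1r of the microglia also passed (limma adjusted p = 0.0357 and 0.0419), and the values of Syt1 and Slc1a2 were above 0, at 0.026 and 0.18. The astrocyte markers summed to 58.3 to 62.0 on VE arrays, 59.0 to 61.3 on ob/ob vehicle arrays and 63.5 to 64.1 on wild type arrays. Only 2 blood markers were measured. Slc4a1, the anion exchanger of red cells, differed by 0.83 in ob/ob vehicle over wild type (limma adjusted p = 0.0856). In VE minus ob/ob vehicle it differed by -0.60 (limma adjusted p = 0.272), the same directions as most receptors. Alas2, the other blood marker, differed by 0.30 in ob/ob vehicle over wild type (limma adjusted p = 0.537). It was not lower on VE, at 0.03 in VE minus ob/ob vehicle (limma adjusted p = 0.908). Whether these shifts have a part in the receptor values was not tested.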

How the data were processed

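Total RNA from brain was hybridised to Clariom S mouse arrays. Per the series design text, the authors obtained signals with Transcriptome Analysis Console 4.0.2 and normalised them with SST-RMA; the deposited values are log2 signals, 1 per probe set and array. The build of the array's coordinates and the aligner of its probes are not given in the sources used here. From these values, group means of 9 arrays were fitted with limma 3.58.1 (R 4.3.3; lmFit, eBayes), with p-values adjusted over 22206 probe sets and called at 0.05. Changes were also set against the median of all probe sets in 20 equal bins of mean signal. Windows around the annotated start came from RefSeq GRCm38.p6 (96 of 112 receptors matched). The number of arrays limits the precision.

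The members and lists were chosen with earlier results of these data known. Single receptors are named if they had the highest or lowest changes or levels, were called, stand at the ends of the number range, or have a known ligand. Replicate numbers were not used to pair the arrays in the main fit. Of 9 same-numbered pairs, 4 had correlated deviations over 0.1 (range -0.03 to 0.33). Those of replicate 1 were 0.33, 0.12 and 0.11. Pairs with different numbers were not computed for comparison, so a pairing or shared batch cannot be judged from these values. Alternatives covered normalisation, moderation, array weights, filters, call rules, bins, left-out arrays and the replicate number. The fit was tested on simulated data.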

Additional observations from a re-analysis of the deposited data

How the results depend on the processing

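The median change and the median above like level kept their direction under every alternative run for ob/ob vehicle minus wild type and for VE minus ob/ob vehicle; those of VE minus wild type, close to 0 at -0.0067 and -0.05, ranged over -0.18 to 0.04 and -0.11 to 0.0004. The counts of called receptors did not hold. In ob/ob vehicle minus wild type, 5 calls became 8 after quantile normalisation, 8 after cyclic loess, 14 after quantile normalisation without VE array 2, 30 with array weights, 24 with the compared groups alone, 13 at an adjusted p under 0.1, 36 under the authors' rule, and 0 to 27 with 1 array left out. In VE minus ob/ob vehicle, 4 calls became 2 with each array centred on its median, 7 after cyclic loess, 7 with trend and robust moderation, 43 with array weights, 0 among probe sets with 1 gene symbol, 0 with the compared groups alone, 8 after quantile normalisation without VE array 2, 13 at an adjusted p under 0.1, 51 under the authors' rule, and 0 to 12 with 1 array left out. In VE minus wild type, none became 13 with array weights and 7 under the authors' rule. The cause was not tested.

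The median change of 0.39 in ob/ob vehicle minus wild type was 0.24 after quantile normalisation, 0.24 after cyclic loess, 0.24 after quantile normalisation without VE array 2 and 0.31 to 0.46 with 1 array left out. The median of -0.47 in VE minus ob/ob vehicle was -0.37 after quantile normalisation, -0.34 after centring, -0.35 after cyclic loess, -0.38 with array weights, -0.28 after quantile normalisation without VE array 2 and -0.57 to -0.39 with 1 array left out. Above like level, -0.35 became -0.27 with array weights and -0.44 to -0.27 with 1 array left out. The 12 receptors at or above the median signal of all probe sets were also taken alone. Their medians were 0.89 and above like level 0.96 in ob/ob vehicle minus wild type. They were -0.90 and -0.82 in VE minus ob/ob vehicle, and -0.18 in VE minus wild type. That cut used the mean over all arrays, so high ob/ob vehicle signals helped receptors to pass it. Olfr657 and Olfr684 had VE and wild type means below the cut of 7.13 and ob/ob vehicle means of 7.98 and 7.75. How far this raised the size of these medians was not tested. A replicate block gave 4 calls in ob/ob vehicle minus wild type, 4 in VE minus ob/ob vehicle and 0 in VE minus wild type, and moved no count of calls past 1.5 times.

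Of 39 single results for named receptors, 6 turned their sign, none of them called and all in ob/ob vehicle minus wild type. Olfr558 (0.04) was -0.13 after quantile normalisation, -0.13 after cyclic loess, -0.033 after centring, -0.13 after quantile normalisation without VE array 2, and -0.11 to 0.25 with 1 array left out. Olfr691 (0.13) was -0.054, -0.039 and -0.056 under the quantile, loess and reduced quantile settings, and -0.14 to 0.32 with 1 array left out. With 1 array left out, Olfr672 ranged over -0.345 to 0.055, Olfr681 over -0.28 to 0.13, Olfr686 over -0.30 to 0.078 and Olfr624 over -0.39 to 0.17. Detection above background was not analysed here, and 100 of the 112 receptors were below the median signal of all probe sets.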
